A study of Mus musculus with 20 samples.

Results

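The genes described here were measured in the preoptic area (POA) of aged male mice: Otof, Ttc34, Prrc2a, Hpf1, Zswim8, Rai1, Zfp710, Selenof, Odc1 and Zfp335. These 10 genes, of 25239 in the deposited table, had low adjusted p-values in the study's own list of genes that differed between housing conditions in dnFGFR mice, once chaperone genes were set aside. Housing in dnFGFR mice is therefore the contrast that chose them, and their values in it are given as a description without a test. All 10 genes passed the filter on low counts in every comparison below. RNA-seq was made from the POA of 20 male mice, 5 in each of 4 groups, and each mouse gave between 32353578 and 39871353 counted reads.

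Control SS and control OS mice had the background of the transgenic line without its transgene. dnFGFR SS and dnFGFR OS mice were homozygous for a transgene in which the rat GnRH promoter drives a truncated FGF receptor 1 without its kinase domain in GnRH neurons, which make up few of the cells of the tissue. SS mice lived with a partner of the same sex and OS mice with a female with which they bred and raised pups. Pairs were formed at PND 20 and tissue was collected at PND 320, after 300 days of housing. All control mice were collected in June or July, 9 of 10 dnFGFR mice in May and the last one in November. Genotype and collection date therefore cannot be told apart. One library, dnFGFR OS replicate 5, stood apart: it had reads on 18416 genes against 19101 to 19659 in the 19 others, and its counts fell with GC content by 0.348 on the log2 scale per 10% of GC, where the slopes of the others lay between -0.116 and 0.123. The study's list was made without this mouse. The housing change of each of the 10 genes in dnFGFR mice over all dates is therefore given with it and without it.

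Markers of the POA were present in every group but low. Gnrh1, Hmx2, Hmx3, Moxd1, Esr1 and Gal summed to 14.8 to 28.7 CPM (counts scaled to the library's size), and none of the 6 was at 0 in a whole group. In bulk tissue, fewer cells of a type and less RNA per cell cannot be told apart.

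The 10 genes belong to unrelated processes. Otof encodes otoferlin, a calcium sensor of vesicle exocytosis known from hair cells of the ear. Odc1 encodes ornithine decarboxylase, the rate-limiting enzyme of polyamine synthesis. Hpf1 is the partner that directs PARP1 and PARP2 to ADP-ribosylate serine at DNA breaks, and Selenof is a selenoprotein of the endoplasmic reticulum (ER) that binds the glucosyltransferase of glycoprotein quality control. Prrc2a reads N6-methyladenosine in RNA, and Zswim8 is the substrate receptor of a cullin-RING ligase in target-directed microRNA decay. Rai1, Zfp335 and Zfp710 are nuclear: Rai1 is a chromatin-associated regulator of transcription whose human counterpart is linked to Smith-Magenis syndrome, Zfp335 is a zinc finger protein found with an H3K4 methyltransferase complex, and Zfp710 is a zinc finger protein. Ttc34 carries tetratricopeptide repeats.

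Promoter windows from RefSeq (build GRCm38.p6), 250 bases before to 50 bases after a start site, were found for 9 of the 10 genes. Otof had no entry. The windows of 3 genes are shown because they span the range among the genes: Odc1 at chr12:17544623-17544922 (plus strand) has the most CpG dinucleotides, Hpf1 at chr8:60890178-60890477 (plus strand) has boxes of both common kinds, and Ttc34 at chr4:154837166-154837465 (plus strand) has the fewest CpG dinucleotides. Capitals mark the GC box GGGCGG, the CCAAT box CCAAT and the glucocorticoid half-site AGAACA, each on either strand, where these letters do not overlap.
Odc1 promoter: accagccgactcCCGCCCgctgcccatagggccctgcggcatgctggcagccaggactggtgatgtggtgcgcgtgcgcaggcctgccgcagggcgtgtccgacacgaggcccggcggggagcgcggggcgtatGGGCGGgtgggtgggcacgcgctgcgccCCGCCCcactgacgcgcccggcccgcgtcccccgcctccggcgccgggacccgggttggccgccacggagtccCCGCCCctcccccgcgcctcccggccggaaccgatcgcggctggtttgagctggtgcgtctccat
Hpf1 promoter: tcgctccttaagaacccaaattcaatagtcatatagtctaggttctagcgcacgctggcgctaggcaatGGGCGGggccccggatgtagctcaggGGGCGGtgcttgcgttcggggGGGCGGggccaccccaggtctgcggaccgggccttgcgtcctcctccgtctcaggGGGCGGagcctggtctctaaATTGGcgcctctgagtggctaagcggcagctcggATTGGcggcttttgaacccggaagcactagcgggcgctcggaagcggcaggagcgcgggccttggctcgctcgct
Ttc34 promoter: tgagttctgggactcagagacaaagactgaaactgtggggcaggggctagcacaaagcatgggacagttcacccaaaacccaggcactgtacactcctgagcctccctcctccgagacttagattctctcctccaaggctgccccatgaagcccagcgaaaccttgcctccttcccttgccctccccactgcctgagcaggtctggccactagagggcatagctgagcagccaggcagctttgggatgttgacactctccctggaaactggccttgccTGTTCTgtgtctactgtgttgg

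The Odc1 window held 4 GC boxes and 42 CpG dinucleotides, and the Hpf1 window held 4 GC boxes, 2 CCAAT boxes and 28 CpG dinucleotides. In the Ttc34 window, 2 CpG dinucleotides and 1 half-site were found. Over 27025 promoters of this length the median was 7 CpG dinucleotides (quartiles 3 and 21), and 7 of the 9 windows had between 22 and 42. A GC box was in 6 of the 9 windows and in 35.9% of all promoters, a CCAAT box in 3 of the 9 and 37.9% of all, and the half-site in 1 of the 9 and 19.02% of all. The cAMP response element TGACGTCA was in the Zfp335 window and in 1.88% of all promoters. Neither TATAAA (14.2% of all promoters) nor CACGTG (7.24%) was in any of the 9 windows.

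Per kilobase of the longest transcript, which allows levels to be set side by side between genes, the mean level over the 20 mice was highest for Prrc2a (66.6 CPM per kb), Selenof (53.2) and Odc1 (34.9). Zswim8 (22.8), Hpf1 (14.4), Zfp335 (12.4) and Rai1 (12.1) lay between, and Otof (7.85), Zfp710 (4.77) and Ttc34 (1.53 CPM per kb) were lowest. Below, CPM are not divided by length, and each gene is compared with itself.

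**Figure D1:**
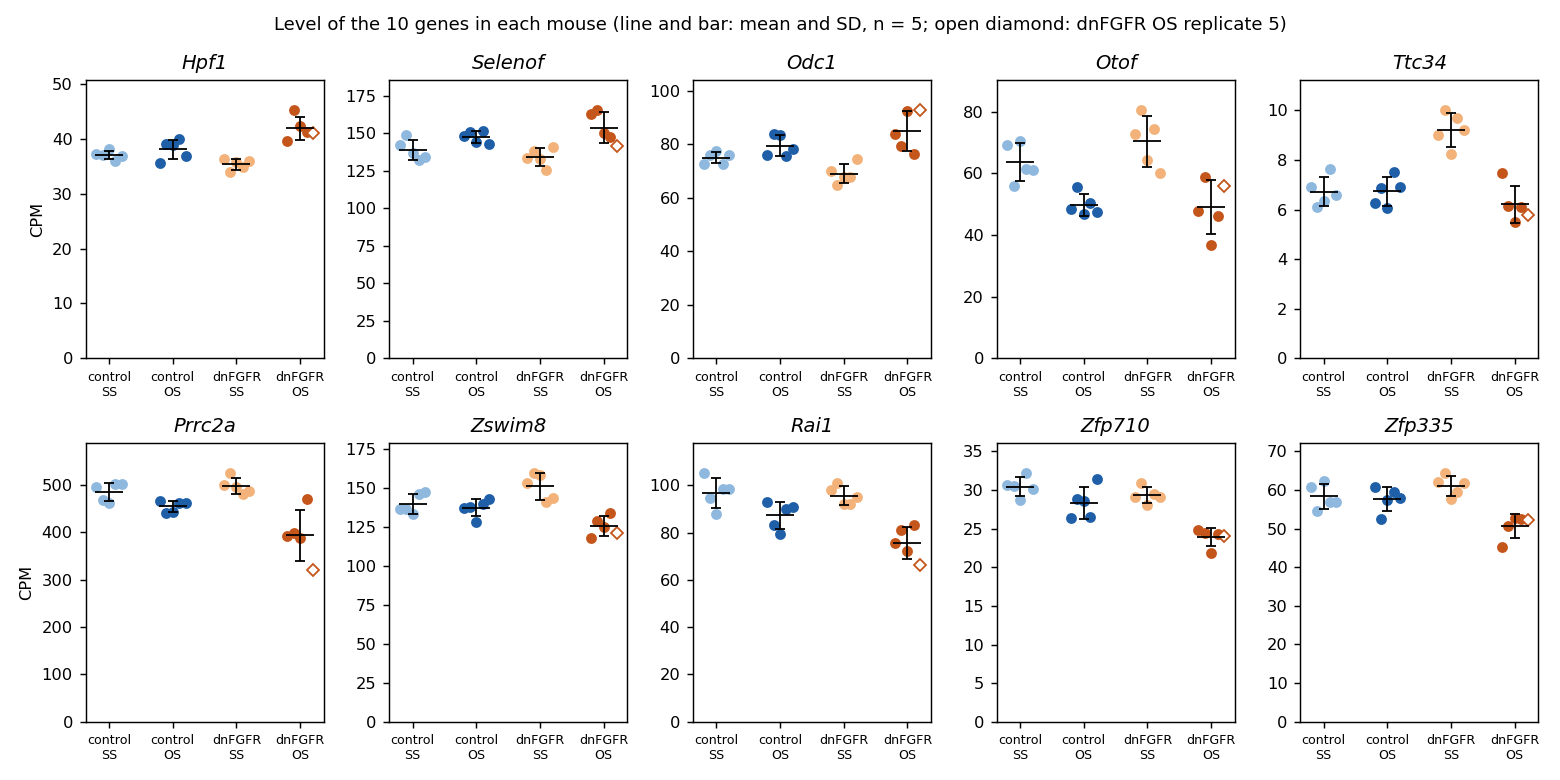
Level of each of the 10 genes (CPM, one panel per gene, axis from 0) in the 20 mice by group. Points are mice, lines and bars are mean and SD (n = 5), and the open diamond is dnFGFR OS replicate 5. In Otof alone, all 5 control OS mice (46.9 to 55.7 CPM) lie below all 5 control SS mice (55.8 to 70.4 CPM).

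Otof (chromosome 5, 30367066 to 30462730) had the clearest housing difference in control mice. The control SS mice had 69.3, 55.8, 70.4, 61.5 and 61.0 CPM, and the control OS mice had 48.3, 55.7, 46.9, 50.4 and 47.5 CPM. The 5 control OS mice thus lay below every control SS mouse, although the closest values, 55.7 and 55.8 CPM, nearly met. The groups failed to overlap in this way for 1.63% of the 17004 genes tested. The log2 fold change was -0.35 (SE 0.0696), with an adjusted p of 0.102 in edgeR, just above the threshold of 0.1. By the exact permutation test on CPM, two-sided p was 0.00794, the smallest that 5 mice against 5 allow. The call depended on the method: DESeq2 gave an adjusted p of 0.00131, and edgeR with all 4 groups in 1 fit gave 1.00 with the same fold change.

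In dnFGFR mice, the SS mice had 72.7, 80.7, 64.3, 74.5 and 60.0 CPM of Otof, and the OS mice had 47.9, 58.7, 36.6, 46.2 and 55.9 CPM. No OS mouse reached the lowest SS mouse, and replicate 3 was the lowest of all 20 mice. Its log2 fold change was -0.57 (SE 0.124) without replicate 5 and -0.52 (SE 0.122) with it. The change in control mice was 61.8% of that in the 9 dnFGFR mice. Of 5 other ferlins, 4 were tested, 0 of which passed in control mice in edgeR or DESeq2 or had an unadjusted p below 0.05. Myof had a log2 fold change of 0.22 (adjusted p = 0.846) and Fer1l5 one of -0.03 (adjusted p = 0.973, edgeR). Of all genes tested in control mice, 0.124% passed in edgeR and 0.923% in DESeq2, and 7.2% had an unadjusted p below 0.05 in edgeR. These shares also apply to the counts of related genes in control mice below.

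Odc1 (chromosome 12, 17544808 to 17551502) was higher in OS-housed dnFGFR mice. The dnFGFR SS mice had 70.0, 64.9, 67.9, 67.9 and 74.5 CPM, and the dnFGFR OS mice had 83.9, 79.3, 92.4, 76.5 and 93.0 CPM. The groups did not overlap, and the log2 fold change was 0.27 (SE 0.0718) without replicate 5 and 0.30 (SE 0.0743) with it. In control mice the SS group had 72.7 to 77.4 CPM and the OS group 75.8 to 83.8 CPM, which overlapped. The log2 fold change there was 0.08 (SE 0.0480), with an adjusted p of 0.762.

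Among 16 other genes of polyamine metabolism, 0 passed an adjusted p of 0.1 in control mice by edgeR and 1 had an unadjusted p below 0.05. It was Smox, the spermine oxidase, which had a log2 fold change of 0.30 (SE 0.0779) and an adjusted p of 0.252. DESeq2 called it, with an adjusted p of 0.0444. In dnFGFR mice the Smox value was -0.03 (SE 0.126) without replicate 5 and -0.15 (SE 0.161) with it. Next in control mice was Arg2, an arginase, at -0.16 (adjusted p = 0.738, edgeR).

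Hpf1 (chromosome 8, 60890392 to 60907580) was higher in OS-housed dnFGFR mice with little spread. It had 36.2, 33.9, 35.7, 34.8 and 36.0 CPM in dnFGFR SS mice and 39.7, 45.3, 42.3, 41.2 and 41.1 CPM in dnFGFR OS mice. The lowest OS mouse stood above the highest SS mouse, and the log2 fold change was 0.25 both without replicate 5 (SE 0.0660) and with it (SE 0.0650). In control mice, 36.0 to 38.1 CPM (SS) and 35.7 to 39.97 CPM (OS) overlapped, although 3 OS mice lay above every SS mouse. The log2 fold change there was 0.04 (SE 0.0528, adjusted p = 0.923, edgeR). Of 11 other genes of ADP-ribosylation in DNA repair, all tested, 0 passed or had an unadjusted p below 0.05 in control mice, in edgeR, and DESeq2 called 0. The log2 fold changes with the smallest p were those of Aplf (-0.19, adjusted p = 0.748) and Macrod1 (0.12, adjusted p = 0.876).

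Selenof (chromosome 3, 144570427 to 144597677) had the smallest separation of the 3 genes that were higher. In dnFGFR mice its SS values were 133, 138, 133, 125 and 141 CPM and its OS values 163, 166, 149.8, 148 and 142 CPM. Replicate 5, the last of these, lay just above the highest SS mouse. On the log2 scale the change was 0.22 (SE 0.0640) without it and 0.19 (SE 0.0668) with it. Control mice had 132 to 149 CPM (SS) and 143 to 151 CPM (OS), which gave 0.09 on the log2 scale (SE 0.0445, adjusted p = 0.712, edgeR). By the exact permutation test, two-sided p was 0.0397 for this gene. Of 17 other genes of ER glycoprotein quality control and ER selenoproteins, 0 passed in edgeR or DESeq2 in control mice and 1 had an unadjusted p below 0.05. Calr, the chaperone calreticulin, had a log2 fold change of 0.11 (adjusted p = 0.660), and Selenon 0.13 (adjusted p = 0.708).

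Prrc2a (chromosome 17, 35149076 to 35165321) was the most abundant of the 10 genes and the one that replicate 5 moved most. The dnFGFR SS mice had 500.4, 525.9, 496, 480.3 and 488 CPM, and the dnFGFR OS mice 393, 398, 389, 472 and 320.2 CPM. Replicate 4 lay close under the SS mice, and replicate 5 far below the rest. The log2 fold change was -0.27 (SE 0.0740) without replicate 5 and -0.34 (SE 0.0907) with it. In control mice it was -0.10 (SE 0.0453, adjusted p = 0.696, edgeR), with an exact permutation p of 0.0238. Those mice had 462 to 502 CPM (SS) and 440.5 to 467 CPM (OS). Among 16 other genes, the Prrc2 family and the writers, readers and erasers of N6-methyladenosine, 0 passed in control mice in edgeR or DESeq2 and 1 had an unadjusted p below 0.05. The nuclear reader Ythdc1 had a log2 fold change of 0.11 (adjusted p = 0.680), and the writer Mettl3 0.15 (adjusted p = 0.716).

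Zswim8 (chromosome 14, 20706277 to 20723619) was lower in OS-housed dnFGFR mice, with 141 to 159.6 CPM in SS and 118 to 134 CPM in OS mice. Its log2 fold change was -0.26 (SE 0.0666) without replicate 5 and -0.27 (SE 0.0657) with it. In control mice the ranges were 133 to 147 CPM (SS) and 128 to 143 CPM (OS), and the log2 fold change was -0.03 (SE 0.0469, adjusted p = 0.938, edgeR). Among 11 genes of the decay ligase and the Argonaute proteins, all tested, 0 passed in control mice in edgeR or DESeq2, while 1 had an unadjusted p below 0.05. Eloc, elongin C, had a log2 fold change of 0.15 (adjusted p = 0.575), and Oip5os1 (Cyrano), a noncoding RNA that directs decay of miR-7, had -0.25 (adjusted p = 0.738). Of 7 tested relatives with a SWIM domain, Zswim5 had a log2 fold change of -0.21 (adjusted p = 0.446, edgeR; its unadjusted p was below 0.05) and Zswim6 -0.09 (adjusted p = 0.892).

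Rai1 (chromosome 11, 60104917 to 60199197) differed in the same direction in both genotypes. The control SS mice had 105, 94.7, 87.9, 98.3 and 98.4 CPM, and the control OS mice had 92.9, 83.3, 79.3, 89.97 and 90.9 CPM. The groups overlapped, since control SS replicate 3 lay within the OS range. Its log2 fold change was -0.15 (SE 0.0579), and the adjusted p of 0.556 in edgeR did not pass. In dnFGFR mice, SS values of 98.1, 101, 92.1, 92.0 and 95.0 CPM stood above OS values of 75.6, 80.9, 72.2, 83.4 and 66.3 CPM. On the log2 scale the change was -0.29 (SE 0.0656) without replicate 5 and -0.34 (SE 0.0731) with it. The Rai1 region also holds Srebf1 and 4930412M03Rik, and how strand and shared reads were handled in counting is not given in the sources used here. Of 11 partners and neighbours of Rai1, 0 passed in control mice in edgeR or DESeq2 and 0 had an unadjusted p below 0.05. Smallest in p were Llgl1 (log2 fold change -0.06, adjusted p = 0.829) and Drg2 (0.06, adjusted p = 0.856).

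Zfp335 (chromosome 2, 164891882 to 164912585) was lower in OS-housed dnFGFR mice, at 45.4 to 52.9 CPM against 57.7 to 64.4 CPM in SS mice. Its log2 fold change was -0.28 (SE 0.0689) without replicate 5 and -0.27 (SE 0.0674) with it. In control mice it was -0.02 (SE 0.0554, adjusted p = 0.973, edgeR). An antisense gene, Zfp335os, overlaps it. Of 13 genes of H3K4 methyltransferase complexes, 0 passed in control mice in edgeR or DESeq2 and 2 had an unadjusted p below 0.05. These were the methyltransferase Kmt2b, at -0.15 (SE 0.0604, adjusted p = 0.576), and Paxip1, at -0.13 (adjusted p = 0.600, edgeR). In the 10 dnFGFR mice the Kmt2b value was -0.24 (SE 0.0737, adjusted p = 0.726, edgeR), and without replicate 5 it was -0.24 (SE 0.0769).

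Zfp710 (chromosome 7, 80024814 to 80092751) had 29.1, 30.9, 28.1, 29.5 and 29.0 CPM in dnFGFR SS mice and 24.9, 24.5, 21.9, 24.3 and 24.03 CPM in dnFGFR OS mice. The OS values were close together except for replicate 3, and none reached the SS range. Zfp710 overlaps Gm51449 and Gm21057. The log2 fold change was -0.30 without replicate 5 (SE 0.0727) and -0.29 with it (SE 0.0702). In control mice it was -0.10 (SE 0.0635, adjusted p = 0.785, edgeR), with 28.7 to 32.2 CPM in SS and 26.4 to 31.4 CPM in OS mice.

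Ttc34 (chromosome 4, 154837308 to 154867125) had the log2 fold change nearest 0 in control mice of the 10 genes, before Zfp335, Zswim8 and Hpf1. The dnFGFR SS mice had 8.98, 10.03, 8.24, 9.67 and 9.20 CPM, and the dnFGFR OS mice had 7.48, 6.16, 5.51, 6.10 and 5.77 CPM. Control SS mice had 6.92, 6.10, 6.36, 7.65 and 6.60 CPM, and control OS mice 6.28, 6.87, 6.07, 7.53 and 6.90 CPM. The dnFGFR SS mice therefore stood above the other 3 groups, which overlapped. Its log2 fold change was -0.55 (SE 0.118) in dnFGFR mice without replicate 5 and -0.57 (SE 0.114) with it, and 0.00 (SE 0.104, adjusted p = 0.999, edgeR) in control mice. Ttc34 had the fewest reads of the 10 genes, 186 to 370 per mouse, and overlaps Gm13112.

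Over the 10 genes, the housing comparison in control mice, which the choice of the genes did not contrast, gave 0 genes past an adjusted p of 0.1 in edgeR, where 0.124% of the 17004 genes tested passed. The order of the list as recomputed below did draw on the spread of the control mice. DESeq2 gave 1, Otof, where it called 0.923% of 17012 genes. At an unadjusted p below 0.05 there were 2 (Otof and Rai1, both lower in OS mice), against 7.2% of all genes (3.66% higher and 3.54% lower). By the exact permutation test, 4 of the 10 had p below 0.05: Otof, Prrc2a, Selenof and Rai1, with 0.0476 for the last, and 7.26% of all genes did. The sign was the same in both genotypes for 9 genes, all but Ttc34, and 63% of 16850 genes did so with 9 dnFGFR mice (57.5% with 10). The median absolute log2 fold change of the 10 genes was 0.0857 in control mice, where that of all genes was 0.0722. In dnFGFR mice, where the genes were chosen, it was 0.275 without replicate 5 and 0.297 with it (0.0901 and 0.105 over all genes). Of the other 62 genes of the study's list, 23 had an unadjusted p below 0.05 in control mice, 6 higher and 17 lower, and 55 had the same sign in both genotypes.

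**Figure D2:**
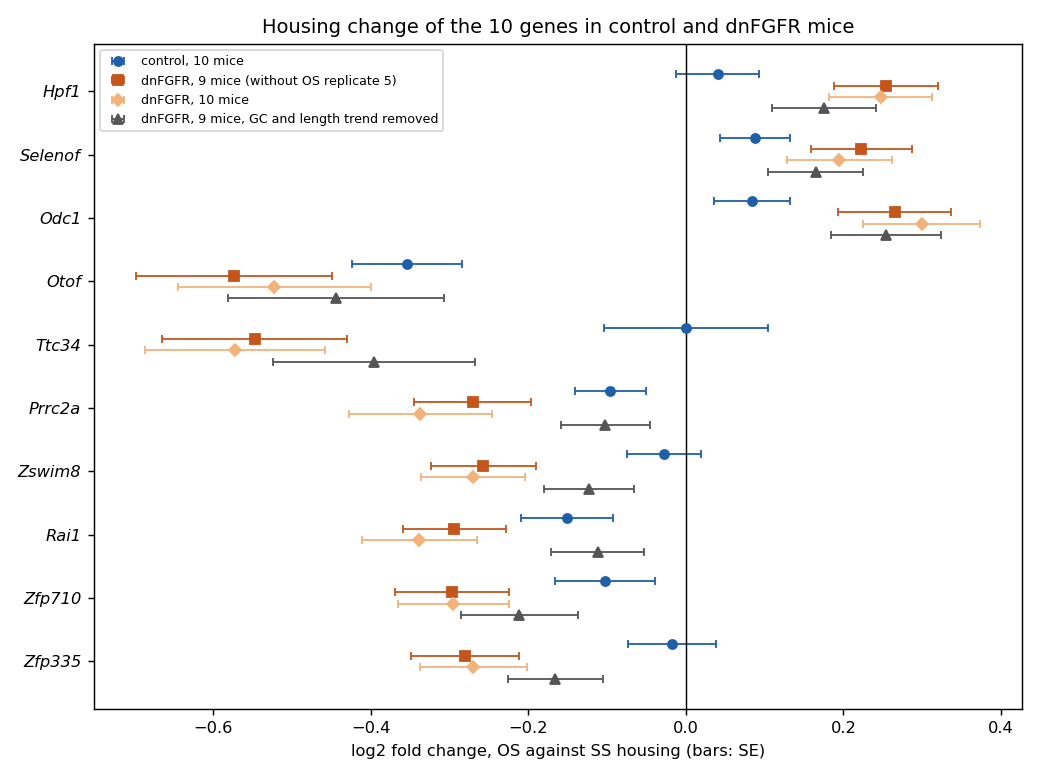
Log2 fold change of OS against SS housing (horizontal axis, bars are SE) for the 10 genes in 10 control mice, 9 and 10 dnFGFR mice, and 9 dnFGFR mice with the trends on GC content and length removed. Otof in control mice (-0.35) lies apart from 0, Ttc34 in control mice lies at 0.00, and the corrected dnFGFR values of Prrc2a (-0.10) and Rai1 (-0.11) are less than the uncorrected ones (-0.27 and -0.29).

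The study's list was chosen on these mice, so the dnFGFR values are no independent evidence of direction. In the order of adjusted p-values recomputed here for the 19 mice with DESeq2, Odc1, Zfp335 and Selenof shared the last place inside, with 0.0169. The next genes outside were Scube3 (0.0181) and Prr12 (0.0207), whose log2 fold changes in control mice were -0.11 (SE 0.0583) and -0.13 (SE 0.0494). No gap in value set the members apart from these genes.

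In dnFGFR mice, OS and SS mice did not overlap in CPM for any of the 10 genes, with or without replicate 5, while 2.06% of all genes tested in 9 mice and 1.42% of those in 10 mice had groups apart. The same contrast chose the genes. Replicate 5 was not used in that choice, and it lay beyond all 5 dnFGFR SS mice, on the side of the other OS mice, for 10 of 10 genes. It did so for 74.2% of the other 62 genes of the list and for 41.4% of all 17069 genes tested, and the SS mice are shared with the choice. With the trends on GC content and length removed, the numbers were 6 of 10, 61.3% and 33%. After that step the groups of the 9 mice overlapped for Otof, Ttc34, Prrc2a, Zswim8, Rai1 and Zfp335. For each of these, 3 of the 4 remaining OS mice lay beyond all SS mice. All 4 did for Hpf1, Zfp710, Selenof and Odc1.

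GC content moved with the housing difference. The 3 genes higher in OS-housed dnFGFR mice had transcripts with 39.9% (Hpf1), 44.0% (Selenof) and 52.4% GC (Odc1), and the 7 lower ones had 55.5% (Zfp710) to 61.0% (Ttc34), where the median of the genes tested was 49.9%. Across genes, which are not independent replicates, Spearman's rho of the log2 fold change with GC content was -0.281 in 9 dnFGFR mice, -0.479 in 10 and -0.0925 in control mice. With each mouse's trends on GC content and length removed, the log2 fold change in the 9 dnFGFR mice kept its sign for all 10 genes and a median of 70.1% of its size. Odc1 kept 95.8%, Otof 77.4% and Ttc34 72.4%, whereas Prrc2a kept 37.8%, Rai1 38.0% and Zswim8 47.7%. In the 10 dnFGFR mice the median absolute value fell to 0.147. In control mice Otof had -0.29 (SE 0.0751) and Rai1 -0.07 (SE 0.0463) after this step. Ttc34 (0.05, SE 0.0956), Zswim8 (0.03, SE 0.0409), Zfp335 (0.02, SE 0.0541) and Hpf1 (-0.000751, SE 0.0488) then had the sign opposite to that in dnFGFR mice. Whether GC content is the source of any of these differences was not tested.

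**Figure D3:**
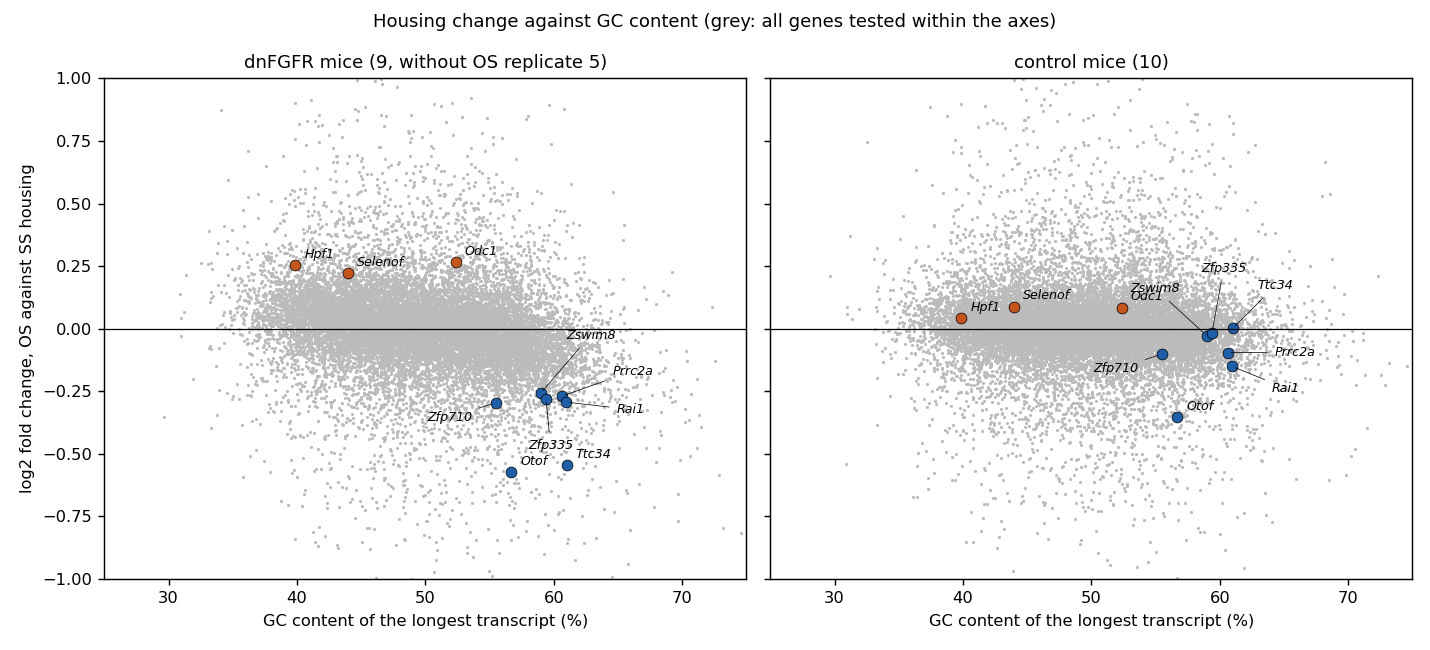
Log2 fold change of OS against SS housing (vertical axis) against GC content of the longest transcript (horizontal axis, %) in 9 dnFGFR mice (left) and 10 control mice (right). Grey points are all genes tested that lie within the axes, red points the 3 genes higher and blue points the 7 genes lower in OS-housed dnFGFR mice. On the left, the grey points slope downward (rho = -0.281), and the blue genes lie at 55.5% to 61.0% GC.

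Within the 2 collection dates of each genotype that held both housings, 7 control mice (2 SS, 5 OS) and 6 dnFGFR mice (2 SS, 4 OS) remained. Otof in control mice then stood at -0.33 on the log2 scale (SE 0.101, adjusted p = 1.00, edgeR), the only one of the 10 genes with an unadjusted p below 0.05, where 3.2% of all genes had one. Rai1 (-0.06) and Prrc2a (-0.03) had smaller values than over all dates. In dnFGFR mice, all 10 genes had the sign they had over all dates, from -0.57 for Ttc34, -0.45 for Prrc2a, -0.43 for Rai1 and -0.41 for Otof to 0.30 for Odc1. No value that leaves out replicate 5 was computed within dates.

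The comparison of genotypes averaged over both housings gave 0 of the 10 genes past an adjusted p of 0.1 in edgeR, where 1.3% of 17445 genes passed, and DESeq2 gave 1, Zfp710 (adjusted p = 0.0508), where it called 2.18% of all genes. An unadjusted p below 0.05 was found for 3, against 11.2% of all genes. Zfp710 had a lower value in dnFGFR mice (log2 fold change -0.15, SE 0.0426, adjusted p = 0.128, edgeR), as did Rai1 (-0.11, SE 0.0461, adjusted p = 0.347). For both, the genotypes lay closer in SS than in OS mice. Mean Zfp710 was 30.5 CPM in control SS and 29.3 in dnFGFR SS mice, against 28.4 in control OS and 23.9 in dnFGFR OS mice. For Rai1 these means were 96.9, 95.6, 87.3 and 75.7 CPM. Ttc34 had 0.17 (SE 0.0709, adjusted p = 0.359, edgeR), but its direction differed between housings. Its mean was 9.22 CPM in dnFGFR SS and 6.73 in control SS mice, but 6.20 in dnFGFR OS and 6.73 in control OS mice. Of the related genes, Llgl1, a cell polarity gene from the list of partners and neighbours of Rai1, passed. It had -0.14 on the log2 scale (SE 0.0369, adjusted p = 0.0948, edgeR).

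In the order of group means, the dnFGFR groups lay at the ends and both control groups between them for 8 of the 10 genes. In Otof, dnFGFR SS (70.4 ± 8.25 CPM) and control SS (63.6 ± 6.14) were followed by control OS (49.8 ± 3.55) and dnFGFR OS (49.1 ± 8.72; SD, n = 5), and only control SS and control OS were neighbours without overlap. In Ttc34 the gap was between dnFGFR SS (9.22 ± 0.685 CPM) and control OS (6.73 ± 0.573). For Rai1 and Zfp710 the control SS mice were highest, and for Zfp710 dnFGFR OS (23.9 ± 1.16 CPM) stood apart from control OS (28.4 ± 2.05). All other neighbours in the order overlapped. This order follows in part from the choice of genes, since the dnFGFR groups were chosen to be far apart.

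The levels of Otof and of some other members went along with markers of another region. The 7 markers of striatal medium spiny neurons (Drd1, Drd2, Adora2a, Ppp1r1b, Gpr6, Rgs9 and Pde10a) summed to 2658 to 3282 CPM in control SS, 2502 to 2902 in control OS, 2415 to 2911 in dnFGFR SS and 1652 to 2363 in dnFGFR OS mice. None was at 0 in any group. The tissue was labelled medial POA, and the paper places the parasagittal cuts of its block lateral to the internal capsule. All 7 had lower values in OS-housed dnFGFR mice (median log2 fold change -0.21 in 10 mice and -0.27 in 9) and 6 of 7 in OS-housed control mice (median -0.06). In edgeR, 0 of the 7 passed in either genotype, with 3 at an unadjusted p below 0.05 in control and 2 in the 10 dnFGFR mice, while DESeq2 called 1 and 0. Of all genes, 7.2% in control and 6.72% in the 10 dnFGFR mice had such an unadjusted p, and DESeq2 called 0.923% in control mice. Rgs9 is itself on the study's list. With group means removed, Pearson's r over the 20 mice between the summed markers and the gene, both on the log2 scale, was 0.71 for Otof (0.70 without replicate 5), 0.51 for Ttc34 (0.56), 0.48 for Zfp710 (0.48), 0.37 for Rai1 (0.55), 0.09 for Prrc2a (0.35) and -0.44 for Odc1 (-0.59). It was 0.27 for Selenof (0.40), although Selenof was higher in OS-housed dnFGFR mice, and between -0.14 and 0.01 for Hpf1, Zfp335 and Zswim8. Without that removal, r was 0.62 for Otof, 0.81 for Zfp710 and 0.72 for Rai1. It was 0.36 to 0.59 for Ttc34, Prrc2a, Zswim8 and Zfp335, and -0.58 to -0.30 for Hpf1, Odc1 and Selenof. Leaving out the 2 mice farthest from the median marker sum gave 0.35 for Otof, 0.74 for Zfp710 and 0.63 for Rai1. These are a description, since all values come from the same libraries. The part of these cells in the difference of Otof or of the other genes was not tested.

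**Figure D4:**
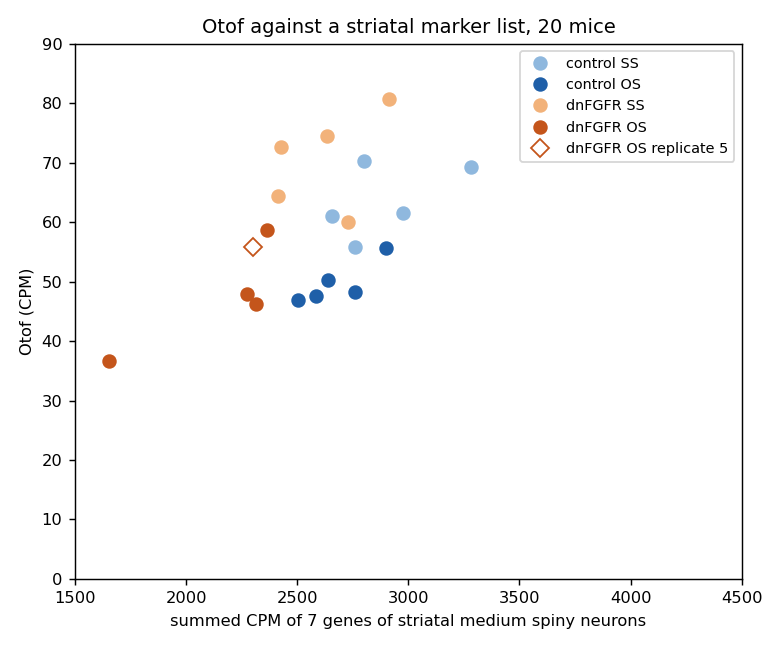
Otof (vertical axis, CPM) against the summed CPM of 7 markers of striatal medium spiny neurons (horizontal axis, not starting at 0) in the 20 mice, coloured by group. The lowest mouse in both is dnFGFR OS replicate 3 (1652 CPM of the markers and 36.6 CPM of Otof), and control OS mice lie below control SS mice in Otof while their marker sums overlap.

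The sums of the other marker lists overlapped between housings in both genotypes. Single markers differed more. All 6 choroid plexus markers had higher values in control OS than in control SS mice (median log2 fold change 1.44), among them Clic6 (0.53, adjusted p = 0.376, edgeR). All 3 endothelial markers had lower values there (median -0.10), among them Cldn5, at -0.46 (SE 0.0932, adjusted p = 0.104, edgeR). With group means removed, Otof had r = -0.50 with the choroid plexus sum and -0.56 with the oligodendrocyte sum. With the microglia sum, r was -0.67 for Rai1, 0.62 for Odc1, -0.58 for Prrc2a and -0.55 for Zswim8, and -0.24 to 0.06 for the others. With the endothelial sum, it was 0.64 for Odc1, -0.53 for Rai1 and -0.52 for Prrc2a, and -0.40 to 0.10 for the others. Replicate 5 of the dnFGFR OS mice, included here, had the highest sum of both lists. The part of these cells in the differences was not tested either. Choroid plexus markers ranged widely within every group, from 36.0 to 1083 CPM in control SS, 51.4 to 1956 in control OS, 37.8 to 1592 in dnFGFR SS and 37.2 to 2183 in dnFGFR OS mice. Oligodendrocyte markers summed to 5712 to 7029 CPM in control SS and 5983 to 8026 in control OS, and to 4427 to 6566 in dnFGFR SS and 4492 to 7154 in dnFGFR OS mice. Endothelial markers summed to 125 to 139 CPM in control SS and 109 to 129 in control OS mice, and to 95.7 to 136 in dnFGFR SS and 88.1 to 147 in dnFGFR OS mice. Cortical excitatory neuron markers lay between 145 and 746 CPM over the 20 mice. Microglia markers had their highest sum, 266 CPM, in dnFGFR OS replicate 5.

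The gene whose level was most like that of a member over the 20 mice was found by Pearson's correlation of log2 CPM, and this too is a description, chosen as the largest value among all genes. Prrc2a was most like Cic (r = 0.98, and 0.94 with group means removed), a transcriptional repressor gene. Rai1 was most like Tnrc18 (r = 0.93), Zswim8 like Sptbn4 (0.89), a spectrin gene, and Zfp710 like Celf5 (0.87), which codes for an RNA-binding protein. Odc1 was most like Smim10l1 (0.86), Hpf1 like Arl6ip1 (0.86), Otof like Zc3hav1l (0.83) and Zfp335 like Scrn1 (0.83). With group means removed, r was 0.81 for Rai1, 0.78 for Zswim8, 0.58 for Zfp710 and 0.71 for Odc1. It was 0.74 for Hpf1, 0.70 for Otof and 0.68 for Zfp335. Cic, Tnrc18, Sptbn4, Smim10l1, Arl6ip1 and Scrn1 are themselves on the study's list, so these likenesses in part restate the housing contrast. Ttc34 had the weakest partner, Ttc36 (0.74, and 0.53 with group means removed). Between members, with group means removed, the pairs farthest from 0 were Prrc2a with Rai1 (r = 0.80), both at about 61% GC, and Rai1 with Odc1 (-0.80). The median was 0.19 over the 21 pairs of genes that were both lower and -0.11 over the 21 pairs of one higher and one lower gene. Without dnFGFR OS replicate 5 these medians were 0.29 and -0.24.

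Taking all 9 lists of related genes, 106 of 108 genes were tested. In control mice 0 passed in edgeR, 7 had an unadjusted p below 0.05, where 7.2% of all genes did, and DESeq2 called 1 (Smox). In the 10 dnFGFR mice 0 passed, 6 had an unadjusted p below 0.05, where 6.72% of all genes did, and DESeq2 called 0. The smallest p in the 10 dnFGFR mice was for Selenot, a selenoprotein of the ER, at 0.27 on the log2 scale (SE 0.0801, adjusted p = 0.726, edgeR). Without replicate 5 the Selenot value was 0.22 (SE 0.0732).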

How the data were processed

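RNA-seq libraries of the POA of 20 male mice were made with the NEBNext Ultra kit. According to the paper's methods and the labels, reads were aligned with HISAT2 to GRCm38 and counted per RefSeq gene with Rsubread. The deposited values are raw counts per gene, whole numbers without normalization, and 20 further columns of the table belong to no sample described for the series and were not used. The submitters' processing notes name DESeq2 1.36.0. Mice were grouped by the labels. Nothing in the labels ties a replicate number to a cage or litter. Libraries within a group differed beyond sampling noise.

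Counts were tested with edgeR 4.0.16 in R 4.3.3 (TMM normalization, filterByExpr, quasi-likelihood F-test, Benjamini-Hochberg adjustment over all genes tested, threshold 0.1). Each genotype was fitted apart for housing, and all 4 groups together for genotype, as the mean of the dnFGFR group means minus that of the control group means. CPM used TMM library sizes, and log2 CPM a prior count of 2. Exact permutation tests of CPM covered 252 splits, so the smallest two-sided p is 0.00794. GC content and length are those of the longest GENCODE transcript on GRCm38, and their trends were removed per mouse with splines of 5 degrees of freedom each. Alternatives were DESeq2 1.42.0, RLE size factors, no filter, 1 fit of all groups, a replicate block, trend removal alone and with the block, mice within collection dates, and each mouse left out. DESeq2 with 4 groups in 1 object was added after the data were seen. The fit was tested on simulated counts.

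The 10 genes, the related genes and the marker lists were chosen with earlier results of these data known. Named genes are the 10, genes of each related list past the threshold or with the 2 smallest p in control mice, the gene most like each of the 10, and the 2 genes next on the study's list. Smox, Selenot and Kmt2b in dnFGFR mice and Clic6 and Cldn5 in control mice were added after their values were seen. One striatal marker of the list, which was left out of its sums, and the gene most like Selenof are not reported here.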

Additional observations from a re-analysis of the deposited data

Results flagged for a closer look

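Of 40 sets of 5 mice, the 10 genes in the 4 groups, 1 held a mouse far from the others by Dixon's criterion at 95%. Zfp710 had 21.9 CPM in dnFGFR OS replicate 3, where the nearest mouse had 24.03 CPM and the highest of the group 24.9 CPM, so that the gap made up 0.721 of the range. Chance marks about 1 in 20 such sets. The mouse lay on the side away from the dnFGFR SS mice.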

How the results depend on the processing

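Over settings, the housing difference of Otof in control mice stayed between -0.29 and -0.40 on the log2 scale, and its adjusted p ranged from 0.00131 to 1.00. One gene in place of 0 passed the adjusted threshold in control mice with DESeq2, RLE size factors or no filter, and 0 to 1 with a mouse left out (Otof, adjusted p = 0.0784 without control SS replicate 2 and 0.0786 without control OS replicate 2). The number with an unadjusted p below 0.05 was 1 in place of 2 with trends on GC content and length removed, alone or with the block, and within dates, 4 by exact permutation, and 1 to 4 with a mouse left out. For genotype, 1 gene passed with DESeq2 and 0 with any mouse left out. The median absolute change in dnFGFR mice was 0.147 in place of 0.297 with the trends removed, alone or with the block, and 0.275 to 0.318 with a mouse left out. Of the related genes, 1 passed with DESeq2. The number with the same sign in both genotypes ranged from 6, with the trends on GC content and length removed, to 10.

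Values near 0 in control mice changed sign for 4 genes. Ttc34 had -0.00193 with DESeq2, -0.00150 with RLE size factors, -0.00100 and -0.00148 with DESeq2 in 1 object of 19 and 20 mice, and -0.0438 to 0.0533 with a mouse left out. With the trends removed, alone and with the block, Hpf1 had -0.000751 and -0.000976, Zswim8 0.0287 in both (0.0278 within dates), and Zfp335 0.0188 and 0.0184 (-0.0427 to 0.0149 with a mouse left out). The causes were not tested beyond these settings.

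The deviations of same-numbered mice of the 2 housings had correlations of -0.0295 to 0.153 in control and -0.0619 to 0.259 in dnFGFR mice. No values for mice of unlike number are set beside these, so they cannot decide whether the numbers pair mice. With a replicate block, 0 of the 10 genes passed and 2 had an unadjusted p below 0.05 in control mice, 0 passed for genotype, the median absolute change in dnFGFR mice was 0.296, 9 signs agreed and 0 related genes passed. Over all genes the block gave 23 calls in place of 21 in control mice and 203 in place of 226 for genotype. The 5 mice per group limit the precision of each value.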
